A study of Citrullus lanatus with 4 samples.

Results

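Expansins and beta-1,3-glucanases were examined as 4 genes of watermelon (Citrullus lanatus), taken by their gene IDs from a count table of 23440 genes. The expansins Cla001151 (expansin-like protein) and Cla002283 (expansin B1) and the glucanases Cla000393 (glucan endo-1,3-beta-glucosidase 3) and Cla001095 (glucan endo-1,3-beta-glucosidase 7) had counts and were tested among the 19732 genes with at least 1 count in any library. The names are those of the study's annotation, of which the first 1999 rows were used, so other expansins and glucanases of the genome were not counted. RNA was sequenced from flowers and floral buds of DAH3615-MS, a genic male sterile line (genotype msms), and of DAH3615, its male fertile near-isogenic line (Msms), with 1 library for each of the 4 conditions. The plants of both lines were progeny of one segregating population and were grown in a greenhouse. Flowers were open and taken on the first day of flowering, floral buds were taken from higher nodes the day before opening, and the DAH3615-MS buds were shorter than those of DAH3615. The number of plants behind a library is not stated.

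Expansins are plant cell wall proteins that loosen the wall without cutting it, by weakening the contacts between cellulose and the other wall polysaccharides. The beta-expansins, to which expansin B1 belongs by name, include the group of grass pollen allergens that are shed in large amounts from grass pollen. Glucan endo-1,3-beta-glucosidases cut beta-1,3-glucans, among them callose. In the anther, callose surrounds the microspores after meiosis until enzymes of this class, secreted by the tapetum, dissolve it, and other members of the family act at plasmodesmata or in defence.

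The counts on genes summed to between 5239032 and 6315796 per library. They were scaled by the trimmed mean of M values (TMM) and are given as CPM, the share of the scaled library total that a gene's counts make up, times 1e6. A floor of 3 counts corresponded to between 0.488 and 0.553 CPM. A model with a line term and an organ term was fitted to all 19732 genes in edgeR, each term was tested by quasi-likelihood, and a gene was called at a Benjamini-Hochberg adjusted p under 0.01. Each line and each organ had 2 libraries in that model, and its 1 residual degree of freedom is the line-by-organ difference, so no p-value carries the spread between plants of one condition. Intervals on counts, shares and ratios cover counting error only. In whole organs, fewer cells of a type and less RNA per cell cannot be told apart.

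The expansin-like gene Cla001151 (chromosome 10, from 3877349 to 3878903, plus strand) was the member that differed between the lines. It had 0 counts in DAH3615-MS flowers and 0 in DAH3615-MS floral buds, against 219 counts in DAH3615 flowers and 175 in DAH3615 floral buds. Neither sterile library held a read of it, while both fertile libraries were at a moderate level, 37.1 CPM in flowers (95% exact Poisson interval 32.3 to 42.3) and 32.0 CPM in floral buds (27.4 to 37.1). These levels lay above those of 67.4% and 64.3% of the genes detected in the same libraries. Of the 19732 genes tested, 899 had 0 counts in both DAH3615-MS libraries, Cla001151 among them. With 0 set to the floor of 3 counts in a library, the level was at least 67.0-fold lower in DAH3615-MS flowers than in DAH3615 flowers and at least 65.5-fold lower in DAH3615-MS floral buds than in DAH3615 floral buds. These bounds leave out counting error in the DAH3615 libraries. The line effect passed the test (adjusted p = 5.63e-05, edgeR quasi-likelihood test, lower in DAH3615-MS in both organs). The fitted log2 fold change of -10.62 (standard error 0.58) rests on the 0 counts and is not a bound. Within DAH3615 the flower level was 1.16 times the floral bud level, with an interval of 0.946 to 1.42 that includes 1, and the organ effect did not pass the test (log2 fold change 0.21, standard error 0.31, adjusted p = 0.648 in edgeR). The line call was lost in DESeq2's Wald test (adjusted p = 0.171; over 8 alternatives with all libraries the adjusted p ran from 1.55e-45 to 0.171) and when a DAH3615-MS library was left out (adjusted p = 0.0359 without flowers and 0.0332 without floral buds, edgeR quasi-likelihood test), where that line kept 1 library.

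**Figure D1:**
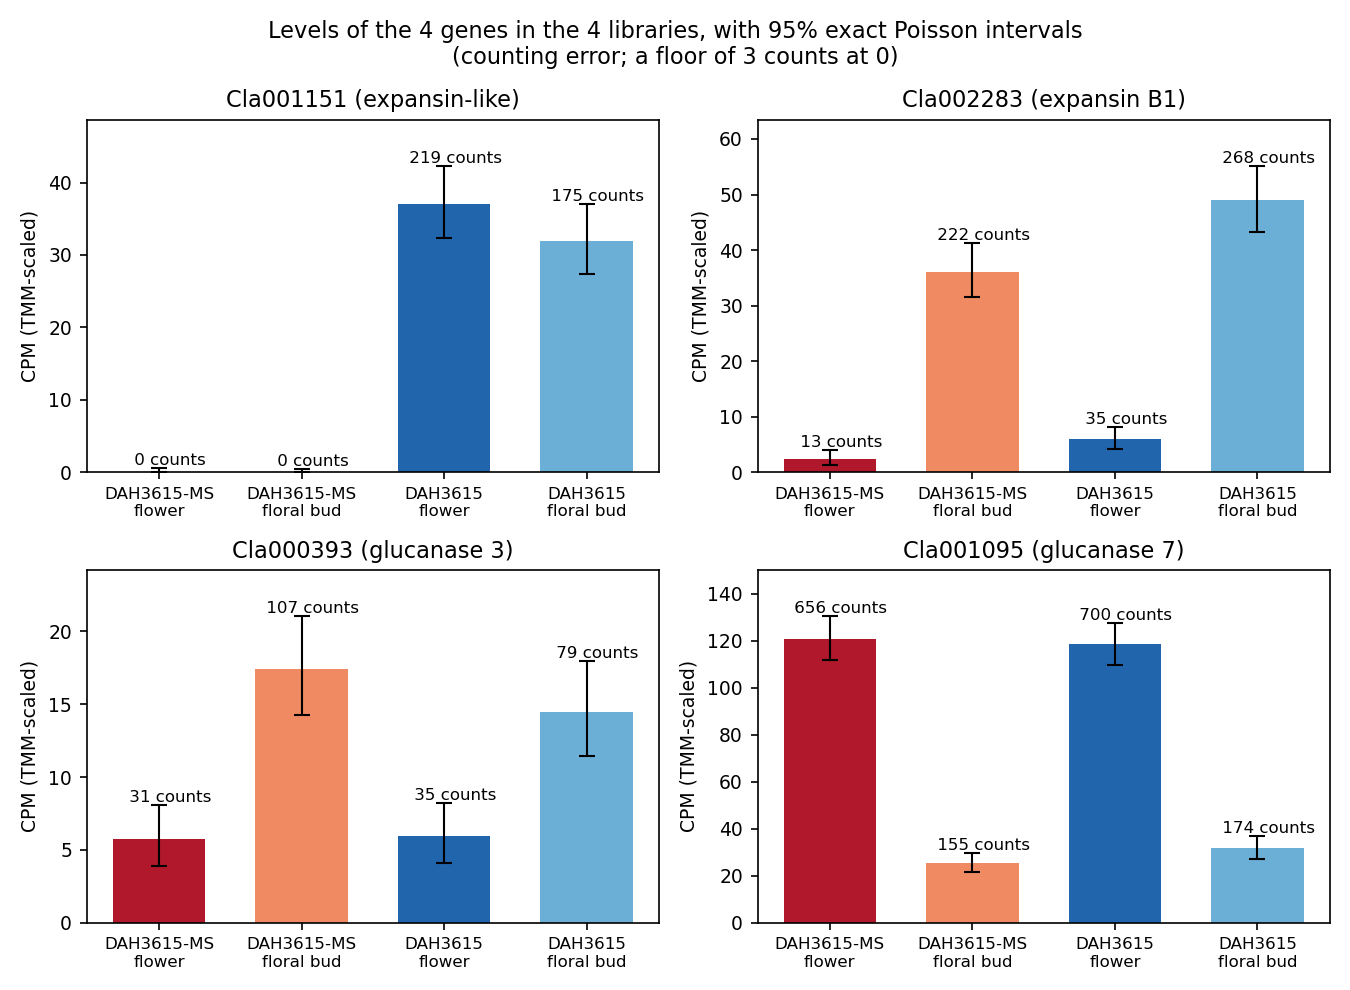
TMM-scaled CPM of each gene (y axis) in each of the 4 libraries (x axis), with bars at the level of 1 library, whiskers for the 95% exact Poisson interval (for 0 counts up to the floor of 3 counts) and the raw count above. The expansin-like gene is at 0 in both DAH3615-MS libraries, while the other genes show the same high organ in both lines.

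Expansin B1, Cla002283 (chromosome 7, from 1402121 to 1405504, plus strand), was higher in floral buds in both lines. It had 13 counts in DAH3615-MS flowers and 222 in DAH3615-MS floral buds, and 35 counts in DAH3615 flowers and 268 in DAH3615 floral buds. Both floral bud libraries, at 36.1 CPM in DAH3615-MS and 49.0 CPM in DAH3615, stood far above both flower libraries, at 2.40 CPM in DAH3615-MS and 5.93 CPM in DAH3615. The flower level was 0.0663 times the floral bud level in DAH3615-MS (95% exact binomial interval 0.0348 to 0.116) and 0.121 times in DAH3615 (0.0825 to 0.173). In flowers the gene fell by 3.39 on the log2 scale, a fitted 10.5-fold difference (standard error 0.28 in log2, adjusted p = 0.000324, edgeR quasi-likelihood test, lower in flowers in both lines).

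Between the lines the values of the same gene in DAH3615-MS were 0.404 times the DAH3615 level in flowers (0.196 to 0.783) and 0.738 times in floral buds (0.615 to 0.885). Both counting intervals lie under 1. The line effect did not pass the test over all genes (log2 fold change -0.69, standard error 0.26, unadjusted p = 0.0321, adjusted p = 0.241 in edgeR). So the sterile line kept expression of this expansin where that of Cla001151 was not detected.

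Summed over these 2 expansins, the level was 2.40 CPM in DAH3615-MS flowers and 36.1 CPM in DAH3615-MS floral buds, against 43.0 CPM in DAH3615 flowers and 81.0 CPM in DAH3615 floral buds. In DAH3615 the make-up of this sum differed between the organs: Cla001151 held 219 of their 254 counts in flowers, or 86.2% (95% Wilson interval 81.4% to 89.9%), and 175 of 443 in floral buds, or 39.5% (35.1% to 44.1%). In DAH3615-MS all 13 and 222 of their counts belonged to Cla002283. These shares are of raw counts, leave out other expansins of the genome and are not corrected for gene length.

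The glucanase 3 gene Cla000393 (chromosome 5, from 31020135 to 31021387, minus strand) was also higher in floral buds, with a smaller difference. Its counts were 31 in flowers and 107 in floral buds of DAH3615-MS, and 35 in flowers and 79 in floral buds of DAH3615. The flower libraries were alike at 5.72 CPM in DAH3615-MS and 5.93 CPM in DAH3615, and the floral bud libraries were higher at 17.4 and 14.4 CPM in the same order of lines. Flowers had 0.328 times the floral bud level in DAH3615-MS (0.213 to 0.493) and 0.411 times in DAH3615 (0.268 to 0.619). In flowers it fell by 1.44 on the log2 scale, a fitted 2.72-fold difference (standard error 0.27 in log2, adjusted p = 0.00701, edgeR quasi-likelihood test, lower in both lines). This call lies close to the threshold: the adjusted p was 0.0390 in DESeq2, 0.0162 in edgeR's newer quasi-likelihood fit and 0.0112 with genes of low counts removed, within a range of 6.59e-05 to 0.0523 over 8 alternatives.

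The glucanase 7 gene Cla001095 (chromosome 1, from 13527528 to 13529318, minus strand) went the other way and was higher in flowers in both lines. Its counts were 656 in flowers and 155 in floral buds of DAH3615-MS, and 700 in flowers and 174 in floral buds of DAH3615. At 121 CPM in DAH3615-MS flowers and 119 CPM in DAH3615 flowers it was more abundant than 90.0% and 89.1% of the genes detected there, while floral buds had 25.2 CPM in DAH3615-MS and 31.8 CPM in DAH3615. The flower level was 4.79 times the floral bud level in DAH3615-MS (4.02 to 5.75) and 3.73 times in DAH3615 (3.15 to 4.43). It rose in flowers by a fitted log2 fold change of 2.08, or 4.22-fold (standard error 0.19 in log2, adjusted p = 0.000455, edgeR quasi-likelihood test, higher in both lines).

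Neither glucanase passed the test between the lines. For Cla000393 the DAH3615-MS level was 0.964 times that of DAH3615 in flowers (0.575 to 1.61) and 1.21 times in floral buds (0.894 to 1.63), with a log2 fold change of 0.14 (standard error 0.27, adjusted p = 0.844 in edgeR). For Cla001095 it was 1.02 times in flowers (0.916 to 1.14) and 0.793 times in floral buds (0.635 to 0.991), with a log2 fold change of -0.14 (standard error 0.19, adjusted p = 0.775 in edgeR). Counting error thus leaves room for a line difference of up to 1.74-fold lower or 1.61-fold higher in flowers for Cla000393, whereas for Cla001095 in flowers the interval is narrow around 1.

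**Figure D2:**
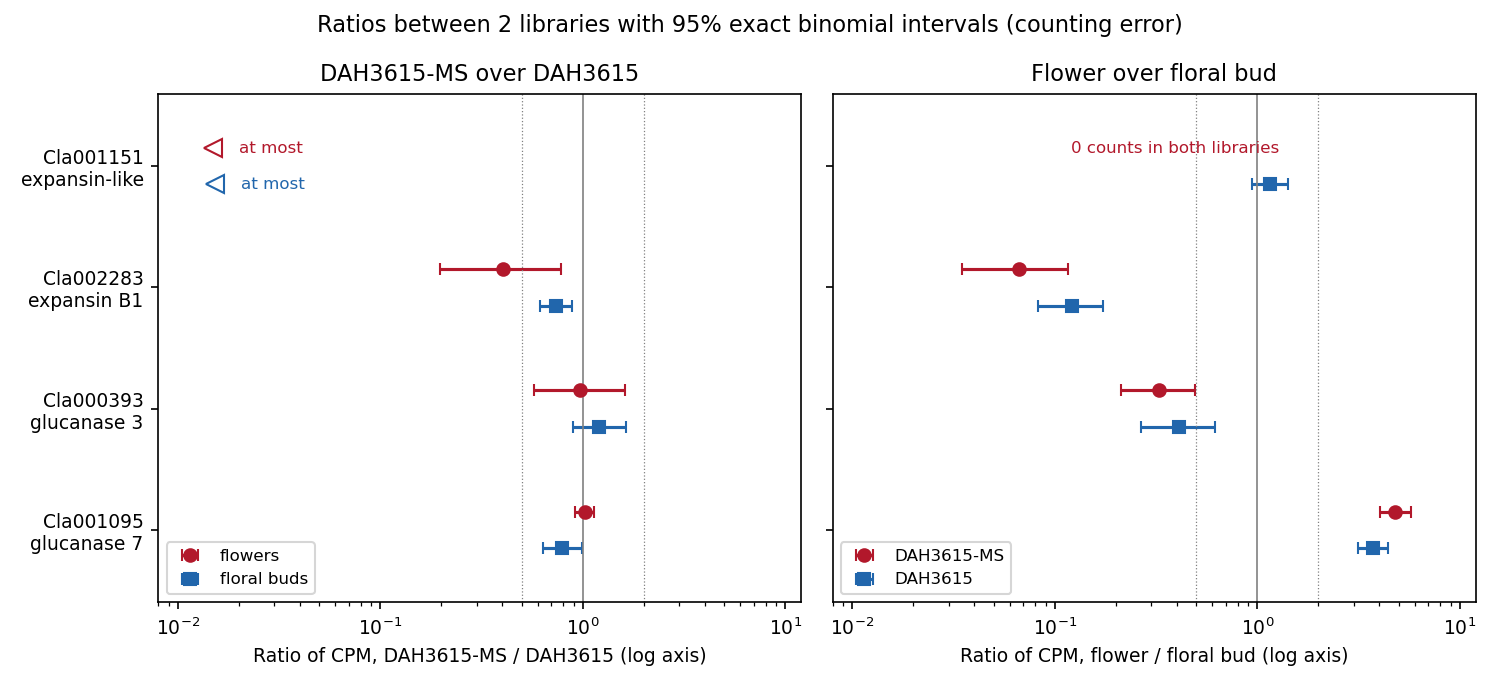
Ratio of CPM between 2 libraries (x axis, log scale) for each gene (y axis), with 95% exact binomial intervals for counting error, dotted lines at a 2-fold difference and open triangles for bounds at the floor of 3 counts. Left, DAH3615-MS over DAH3615 in flowers and floral buds, where the expansin-like gene stands at the bounds of 67.0-fold and 65.5-fold lower. Right, flower over floral bud in each line, where the points of the other 3 genes lie beyond 2-fold in both lines. The interval of Cla000393 in DAH3615 (0.268 to 0.619) reaches within 2-fold.

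Across all genes tested, 3.95% differed between the lines, with 0.0355% higher and 3.92% lower in DAH3615-MS. Of the 4 members, 0 were higher in DAH3615-MS and 1 was lower. Between the organs, 15.2% of all genes differed, with 7.59% higher and 7.58% lower in flowers. Among the members, 1 was higher in flowers and 2 were lower. The 3 members that differed between organs were the 3 that did not pass between the lines. The median log2 fold change of the 4 members was -0.41 for DAH3615-MS over DAH3615 and -0.62 for flower over floral bud, beside -0.01 and 0.00 over all genes, and with 4 genes of unlike patterns these medians describe none of them. For the organ effects of Cla002283, Cla000393 and Cla001095, leaving out any 1 library and the line term kept the direction but not the call (adjusted p between 0.118 and 0.236 in edgeR), and in those fits no gene of the whole table was called between the organs, while between 3339 and 4547 had an unadjusted p under 0.05.

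**Figure D3:**
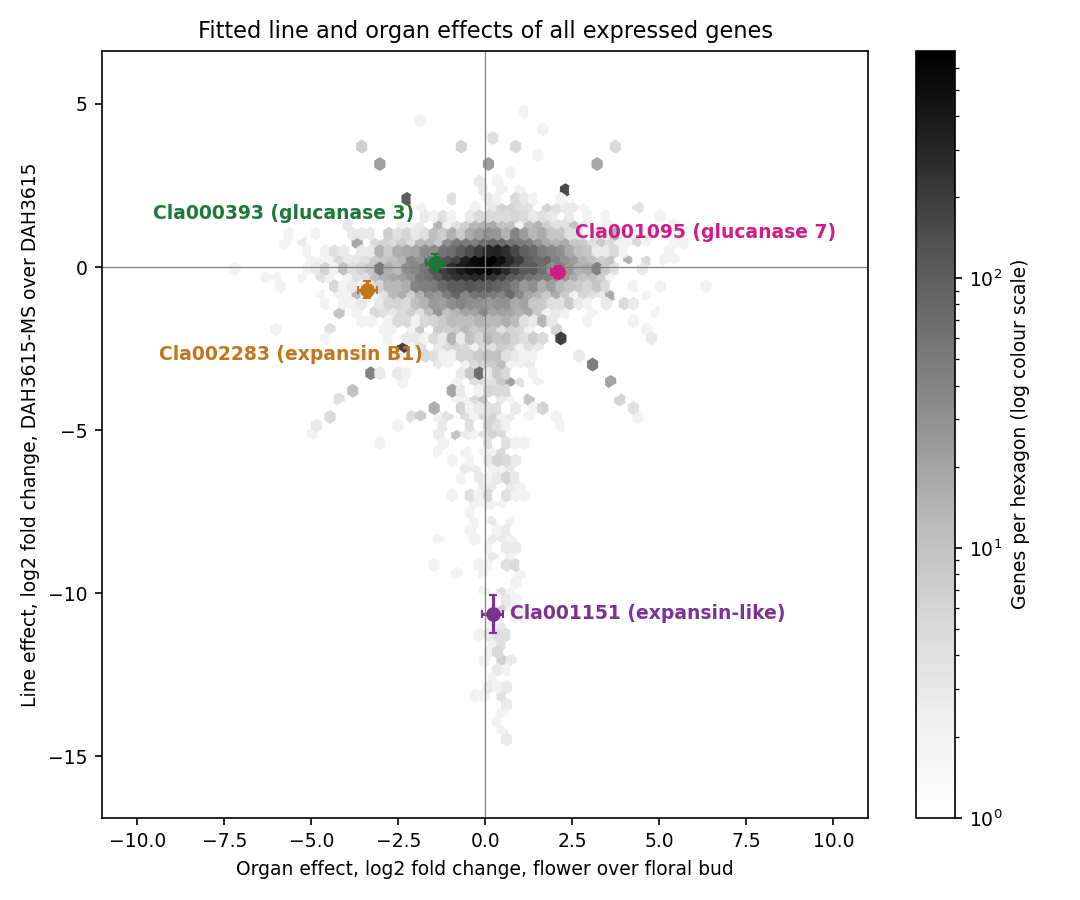
Fitted log2 fold change between organs (flower over floral bud, x axis) against that between lines (DAH3615-MS over DAH3615, y axis) for the 19732 tested genes as hexagons, with the 4 members as points and their standard errors as bars. Cla001151 lies in the vertical tail of genes lower in DAH3615-MS, and the other members spread along the horizontal organ axis near a line effect of 0.

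Counted as 2-fold or more on log2 CPM with a prior count of 2, the lines differed in flowers for Cla001151 and Cla002283, both lower in DAH3615-MS, where 10.1% of all genes were lower and 3.21% higher. In floral buds this held for Cla001151 alone, where 10.4% of all genes were lower in DAH3615-MS and 3.11% higher. Between flowers and floral buds of DAH3615-MS, Cla002283 and Cla000393 were lower and Cla001095 was higher in flowers, and 15.2% and 13.9% of all genes were lower and higher. In DAH3615 the same members passed in the same directions, with 12.8% and 11.8% of all genes lower and higher in flowers. Each of these comparisons is between 2 libraries and has no replicate check.

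How far the line ratio itself differed between the organs was estimated as the ratio in flowers over the ratio in floral buds. It was 0.548 for Cla002283 (95% exact conditional interval 0.260 to 1.09), 0.799 for Cla000393 (0.437 to 1.46) and 1.29 for Cla001095 (1.003 to 1.65). The intervals of Cla002283 and Cla000393 include 1, and that of Cla001095 begins just above it. For Cla001151 no such value can be given, as DAH3615-MS had 0 counts in both organs. With 1 library per condition, these differences were not tested against the spread between plants.

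The annotation rows used here describe 4 further genes as glucan endo-1,3-beta-glucosidases, all with counts. Between the lines 0 of the 4 passed (adjusted p from 0.530 to 0.843 in edgeR) and 0 had an unadjusted p under 0.05. Between the organs 2 of the 4 passed, both lower in flowers. Over all genes tested, 3.95% passed between the lines and 7.58% were lower in flowers. Between the lines, 3215 of the 19732 genes had an unadjusted p under 0.05 in the edgeR quasi-likelihood test. Cla002174, numbered 6 in the annotation, had 89 counts in flowers and 319 in floral buds of DAH3615-MS, and 109 in flowers and 291 in floral buds of DAH3615. In flowers it fell by 1.59 on the log2 scale (standard error 0.19, adjusted p = 0.00113 in edgeR), close in size to Cla000393. Cla001408, which carries no number, had 0 counts in flowers and 27 in floral buds of DAH3615-MS, and 1 in flowers and 14 in floral buds of DAH3615 (adjusted p = 0.00831 between organs in edgeR). It was thus detected almost only in floral buds. In DAH3615-MS it was at least 7.95-fold lower in flowers at the floor of 3 counts, with counting error in floral buds left out. Of the genes numbered 4, Cla003163 had 26 and 13 counts in DAH3615-MS flowers and floral buds and 19 and 6 in those of DAH3615 (adjusted p = 0.0736 between organs in edgeR), and Cla002962 had 1 count in all 4 libraries together. The median log2 fold change of these 4 genes was -1.90 between organs and 0.64 between lines, the gene with 1 count included, beside 0.00 and -0.01 over all genes.

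Taking the 6 described glucanase genes together, their summed level was 148 CPM in DAH3615-MS flowers and 101 CPM in DAH3615-MS floral buds, and 146 CPM in DAH3615 flowers and 103 CPM in DAH3615 floral buds. The sums were close between the lines in each organ. The gene with the largest share of raw counts, not corrected for length, was not the same in both organs. Cla001095 held 81.8% of the glucanase counts in DAH3615-MS flowers (95% Wilson interval 79.0% to 84.3%) and 24.9% in DAH3615-MS floral buds (21.7% to 28.5%). In DAH3615 its share was 81.0% in flowers (78.3% to 83.5%) and 30.9% in floral buds (27.2% to 34.8%). Cla000393 made up 3.87% and 17.2% in flowers and floral buds of DAH3615-MS and 4.05% and 14.0% in those of DAH3615. Cla002174 held the largest share in floral buds, with 51.3% in DAH3615-MS and 51.6% in DAH3615. The shares are of raw counts, so longer genes weigh more. Cla002174 spans 4675 bases from start to end with any introns, against 1791 for Cla001095. Divided by span, the floral bud level of Cla002174 (51.9 CPM in DAH3615-MS, 53.2 CPM in DAH3615) falls below that of Cla001095 (14.1 and 17.8 CPM per kb). The change of leading gene was thus seen in raw counts and not per kilobase of span. Transcript lengths without introns were not available, so whether it holds per kilobase of transcript was not tested.

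**Figure D4:**
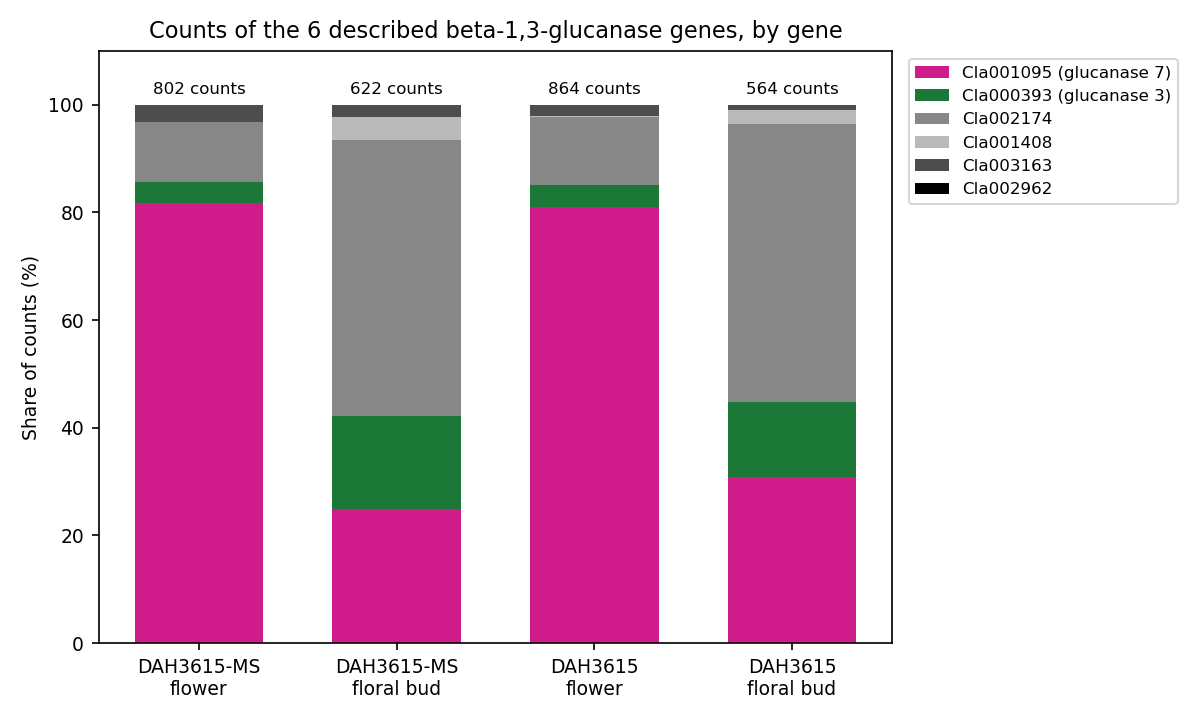
Share of raw counts (y axis, percent) that each of the 6 described beta-1,3-glucanase genes held in each library (x axis), with the summed count above each bar. Cla001095 fills over 80% of both flower bars and between 24.9% and 30.9% of both floral bud bars, where Cla002174 is largest. Shares are not corrected for gene length, and Cla002174 has the longer span (4675 bases against 1791).

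Levels of different genes were compared per kilobase of the gene's span in the table, from start to end with any introns. Transcript lengths were not available. The orders below therefore hold for this span only, and the intervals do not cover the choice of length. In DAH3615-MS flowers the order was Cla001095 with 67.5 CPM per kb, Cla000393 with 4.56, Cla002283 with 0.708 and Cla001151 at 0, and the Poisson intervals of the 3 genes with counts did not overlap. In DAH3615-MS floral buds Cla001095 with 14.1 CPM per kb, Cla000393 with 13.9 and Cla002283 with 10.7 could not be ordered per kb, as the intervals of each neighbouring pair overlapped, and Cla001151 was at 0. In CPM not divided by span, Cla002283 was highest there (36.1), followed by Cla001095 (25.2) and Cla000393 (17.4). In DAH3615 flowers Cla001095 led with 66.2 CPM per kb, followed by Cla001151 with 23.8, Cla000393 with 4.73 and Cla002283 with 1.75, all apart by their intervals. Cla000393 and Cla002283 had the same level there before division by span (35 counts and 5.93 CPM each). Their order in these flowers thus rests on span alone. In DAH3615 floral buds Cla001151 had 20.6 CPM per kb, Cla001095 17.8, Cla002283 14.5 and Cla000393 11.5, and the interval of each overlapped the next. The interval of Cla001151 (17.6 to 23.8) still lay above those of Cla002283 (12.8 to 16.3) and Cla000393 (9.12 to 14.4). In CPM not divided by span, the expansins stood the other way round in these buds. Cla002283 had 49.0 CPM (43.3 to 55.2) and Cla001151 had 32.0 CPM (27.4 to 37.1). That of Cla001095 (15.2 to 20.6) lay above that of Cla000393. The 4 members were therefore spread more widely in open flowers than in fertile buds.

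Genes with the most similar pattern were sought among the 16726 genes with a mean of 1 CPM or more, by the Euclidean distance between log2 CPM values centred on each gene over the 4 libraries. With 4 values per gene this is a description. Nearest to Cla001151 were Cla003752 (distance 0.07), which had 0 counts in both DAH3615-MS libraries and 206 and 172 in DAH3615 flowers and floral buds, then Cla020051 (0.09) and Cla015929 (0.18). Among genes with a description in the rows used here, the nearest were Cla002030, a calcium binding protein gene (0.35), Cla002735, a receptor protein kinase-like gene (0.70), and Cla002276, a GPI-anchored protein gene (0.70), each with 0 counts in both DAH3615-MS libraries.

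Nearest to expansin B1 in the whole set was Cla002742 (distance 0.28), described as a pectate lyase, an enzyme that cleaves the pectin of the cell wall. Cla002742 had 352 counts in flowers and 4586 in floral buds of DAH3615-MS, and 1000 in flowers and 6473 in floral buds of DAH3615. In flowers it fell by 3.16 on the log2 scale (standard error 0.25, adjusted p = 0.000316 in edgeR). An organ effect close in size to that of expansin B1 follows from choosing the gene by this distance. Next came Cla019367 (0.32) and Cla022885 (0.35), and among described genes Cla000606, a rhamnogalacturonate lyase-like gene (0.58), whose product class also acts on pectin, and Cla000891, a GATA transcription factor 9 gene (0.65).

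The nearest patterns to Cla000393 were those of Cla012359, Cla016487 and Cla020546 (each at 0.05), and among described genes those of a BZIP transcription factor, Cla002394 (0.10), a trihelix transcription factor, Cla001964 (0.13), and a UDP-N-acetylglucosamine transporter, Cla000731 (0.16). For Cla001095 they were Cla018142, Cla014164 and Cla015846 (each at 0.05), and among described genes Cla002617, an exocyst complex component 7 gene (0.06), Cla001514, a sphingosine-1-phosphate lyase gene (0.08), and Cla002034, a transcription factor gene (0.10). The nearest gene thus lay closer for these glucanase members (0.05 each) than for the expansin members Cla001151 (0.07) and Cla002283 (0.28). This describes the 4 members and not their families.

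Other genes that act on the wall were counted from the same annotation rows. Of 3 genes for xyloglucan endotransglucosylase/hydrolases, which cut and rejoin xyloglucan chains, 0 passed the test between lines or organs (edgeR quasi-likelihood test, 0 of 3 between lines and 1 of 3 between organs at an unadjusted p under 0.05), and their median log2 fold changes were 0.20 and 0.51. Over all 19732 genes, 3.95% passed between lines and 15.2% between organs. At an unadjusted p under 0.05 there were 3215 genes between lines and 7752 between organs. Of 13 genes for pectin-modifying enzymes and their inhibitors, 4 were lower in DAH3615-MS, 0 were higher, 5 were lower in flowers and 0 higher. Over all genes tested, 3.92% were lower and 0.0355% higher in DAH3615-MS, and 7.58% were lower and 7.59% higher in flowers. The median log2 fold change of these 13 genes was -1.11 between lines and -1.67 between organs, beside -0.01 and 0.00 over all genes. It takes enzymes and inhibitors together. Genes of few counts are included: Cla001441 (at most 2 in a library), Cla001988 (at most 9) and Cla000060 (at most 11). The 4 that were lower in DAH3615-MS were the polygalacturonase genes Cla000006 and Cla001080, the pectinesterase gene Cla001889 and the pectin methylesterase inhibitor gene Cla000817. Like Cla001151, Cla000006 and Cla000817 had 0 counts in both DAH3615-MS libraries, and are among 899 such genes of the 19732 tested. Their counts were 1108 and 1406 in DAH3615 flowers and 1262 and 949 in DAH3615 floral buds. Cla001889 had 2 counts in DAH3615-MS flowers and 1 in DAH3615-MS floral buds, against 3618 in DAH3615 flowers and 2247 in DAH3615 floral buds (adjusted p = 6.55e-06 in edgeR). Cla002573, a pectate lyase gene, showed the organ pattern of expansin B1, with 162 counts in flowers and 1677 in floral buds of DAH3615-MS, and 163 in flowers and 1347 in floral buds of DAH3615 (adjusted p = 0.000174 between organs in edgeR).

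Of the 6 genes whose description begins with the word pollen, 2 were lower in DAH3615-MS and 0 higher, beside 3.92% and 0.0355% of all genes. The summed level of the 6 was 6.45 CPM in flowers and 25.7 CPM in floral buds of DAH3615-MS. In DAH3615 it was 566 CPM in flowers and 585 CPM in floral buds. Those that fell were Cla002347, named as a pollen allergen Phl p 11, with 6 counts in DAH3615-MS flowers and 3 in DAH3615-MS floral buds, against 3120 in DAH3615 flowers and 2018 in DAH3615 floral buds, and Cla003043, of the pollen Ole e 1 family, with 8 and 108 counts in DAH3615-MS flowers and floral buds against 170 and 1142 in those of DAH3615. Of the 6, only Cla002397 was at 0 in both DAH3615-MS libraries, and of the DAH3615 libraries it had 0 counts in flowers and 2 in floral buds. Cla001499, also of the Ole e 1 family, had 1 count in each DAH3615-MS library, against 33 in DAH3615 flowers and 15 in DAH3615 floral buds (log2 fold change -4.39, standard error 0.73, adjusted p = 0.0110 in edgeR), which narrowly missed the threshold. Both Cla002155 (12 and 45 counts in DAH3615-MS flowers and floral buds, 10 and 18 in those of DAH3615) and Cla003156 (8 and 1 in DAH3615-MS, 10 and 8 in DAH3615) were detected in all libraries. Of 3 genes of the photosynthetic apparatus, 0 differed between the lines (edgeR quasi-likelihood test, 0 of 3 at an unadjusted p under 0.05), and their sums were 978 and 915 CPM in DAH3615-MS flowers and floral buds and 939 and 711 CPM in those of DAH3615. Of all 19732 genes, 3.95% differed between the lines in that test and 3215 had an unadjusted p under 0.05. The part of pollen and anther tissue, and of the difference in bud length, in the level of Cla001151 was not tested.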

How the data were processed

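Per the study's methods, paired-end reads were trimmed (Trimmomatic), mapped to version 1 of the watermelon reference genome (TopHat2 with Bowtie2) and assigned to genes (HTSeq). The authors deposited raw counts, not normalized, in 1 column for each library. Tool versions and the strand setting are not given in the sources used here. Coordinates are those of the count table, and the genome itself was not used here; reads that similar family members may share were not examined.

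Genes without counts (3708) were left out and no further filter was applied. TMM scaling and the quasi-likelihood test (legacy form, prior degrees of freedom 6.43, common biological coefficient of variation 0.174) were run in edgeR 4.0.16 under R 4.3.3. The standard error is the absolute log2 fold change over the square root of F. Alternatives were the likelihood ratio test, the newer quasi-likelihood form, DESeq2 1.42.0, limma-voom (limma 3.58.1), library totals or RLE factors, a filter (1 CPM in 2 libraries), a threshold of 0.05, the tested factor alone and each library left out. Scripts were tested on simulated data. Intervals and distances used Python 3.11.15 and scipy 1.17.1.

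The members and gene lists were chosen with earlier results of these data known. Named genes were the members, the listed families, the 3 genes nearest in pattern (overall and among described genes) and the nearest gene on each side of a member. Descriptions came from the first 1999 rows of the study's annotation. Cla002573 was singled out from its list after its values were seen.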

Additional observations from a re-analysis of the deposited data

Results flagged for a closer look

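For Cla000393, the 2 organs lay on opposite sides of an equal level between the lines: the DAH3615-MS level was 0.964 times that of DAH3615 in flowers and 1.21 times in floral buds. Under library totals without TMM both were above 1, at 1.07 and 1.32, and the split was gone. For Cla001095 the sides were turned round, with 1.02 times in flowers and 0.793 times in floral buds, and the split remained under library totals (1.13 and 0.868). Each value compares 2 libraries, and the differences between organs were not tested against a spread between plants. With 1 library per condition such a split can occur easily. The counting intervals of 3 of these 4 ratios include 1, the exception being Cla001095 in floral buds (0.635 to 0.991).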

How the results depend on the processing

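Of 64 member effects recomputed with all libraries, 55 kept their direction and their side of the threshold. All 26 recomputed ratios between 2 libraries (library totals or RLE factors) lay within the counting intervals of the values given, but that of Cla000393 between the lines in flowers crossed 1 under library totals (1.07). The 4 recomputed bounds of Cla001151 ran from 59.9-fold to 66.5-fold. Library totals moved the median line effect of all genes from -0.01 to 0.13 and turned that of Cla001095 to 0.00098. The line call of Cla001151 was lost in DESeq2 (-10.07) and without the organ term (-10.63, adjusted p = 0.0196). The organ call of Cla000393 was lost in DESeq2 (-1.42), the newer quasi-likelihood form (-1.44), the filtered set (-1.44) and without the line term (-1.45), the last of which also ended those of Cla002283 (-3.34) and Cla001095 (2.07). Calls between lines numbered 780, but 1339 by the likelihood ratio test and 0 without the organ term (1085 at an unadjusted p under 0.05). Calls between organs numbered 2993, but 4933 by the likelihood ratio test, 5549 at a threshold of 0.05, 1411 in the newer form and 0 without the line term (5397 unadjusted).

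With 1 library left out the model held the tested factor alone, and the lone library was assumed to vary like the others. Calls between lines then numbered between 0 and 405 and between organs 0 throughout (between 3339 and 4547 at an unadjusted p under 0.05). Line effects ranged from -10.76 to -10.50 for Cla001151, from -3.50 to 1.70 for Cla002283, from -0.83 to 0.96 for Cla000393 and from -1.59 to 1.23 for Cla001095. Organ effects ranged from -9.50 to 9.76 for Cla001151, from -4.09 to -2.83 for Cla002283, from -1.58 to -1.31 for Cla000393 and from 1.91 to 2.25 for Cla001095. Such a fit mixes both factors, since 1 line or organ is left with a single library. No paired analysis was possible because each condition had 1 library, so a replicate number pairs nothing beyond the line and organ terms. At 13 to 35 counts in flowers, the depth limits the line ratios of Cla002283 and Cla000393.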

Other observations

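The members lie on 4 chromosomes, and none overlaps the next listed gene on either side. Of the 7 neighbours with counts, 0 passed the edgeR quasi-likelihood test between lines or organs, and 0 between lines and 3 between organs had an unadjusted p under 0.05. Over all 19732 genes, 3.95% passed that test between lines and 15.2% between organs. An unadjusted p under 0.05 was held by 3215 of them between lines and 7752 between organs. The gene before Cla001151, Cla001150, described as a thaumatin-like protein, lies 4229 bases away and had 44 counts in DAH3615-MS flowers and 19 in DAH3615-MS floral buds, against 53 in DAH3615 flowers and 26 in DAH3615 floral buds (log2 fold change -0.34 for DAH3615-MS over DAH3615, standard error 0.33, adjusted p = 0.691, edgeR quasi-likelihood test). Next to a gene at 0 in both DAH3615-MS libraries, it was thus detected in all 4 libraries. The gene after Cla001151, Cla001152, had 6 and 2 counts in DAH3615-MS flowers and floral buds and 1 in each DAH3615 library.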
